A study of Homo sapiens with 30 samples.

Results

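LBH and THSD7A were followed across the 10 groups of the study through every probe set that the platform annotation maps to either gene alone. These were 2 of 11963 genes on the array, measured by 3 of 22277 probe sets: 221011_s_at for LBH, and 214920_at and 213894_at for THSD7A. The 2 genes were chosen by their measured values, namely the change over 24 h of control culture and the difference between TiO2 nanobelts and control at 24 h, so those contrasts are described here with no test. The working name of the pair, culture-induced genes, holds for LBH and not for THSD7A. LBH was 13.4-fold higher after 24 h than after 1 h of control culture. THSD7A differed between these times by -0.22 log2 units by 214920_at and -0.47 by 213894_at, and its arrays overlapped. Both genes were lower at 24 h with 100 µg/ml TiO2 nanobelts than in control culture, by a log2 difference of -1.75 for LBH and -1.74 for THSD7A.

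The cells were THP-1, a human line from an acute monocytic leukemia, made macrophage-like with 82 nM phorbol 12-myristate 13-acetate for 24 h, then washed, scraped and plated again as the particles were added. All 10 groups, controls included, therefore carried the phorbol ester pretreatment and the replating, and 1 cell line stood for macrophages throughout. The groups were no particles (0 µg/ml), multi-walled carbon nanotubes (MWCNT) at 10 or 100 µg/ml, and TiO2 nanobelts (TiO2-NB) at 10 or 100 µg/ml, each cultured for 1 or 24 h. Each group had 3 arrays, which the labels call biological replicates with no word on separate passages or days, so that errors and p-values measure the spread between these arrays.

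LBH is a small acidic nuclear protein that acts as a cofactor of transcription; it is named for limb bud and heart, where it is expressed in development, and it is a target of canonical WNT signalling in epithelial cells. THSD7A is a large membrane protein whose extracellular part carries thrombospondin type 1 repeats. It is known from podocytes of the kidney, where it is a target of autoantibodies in membranous nephropathy, and from endothelial cells, where it affects migration. WNT signalling passes from secreted ligands through frizzled and LRP receptors to beta-catenin, which acts with TCF/LEF factors on target genes.

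The sequences before the start sites of the genes are shown because the genes shared a lower level with nanobelts and differed in their change with culture. Each is the 250 bases before the RefSeq start (GRCh38.p14), read 5′ to 3′ on the strand of the gene, LBH on the plus strand at chr2:30231284-30231533 and THSD7A on the minus strand at chr7:11832199-11832448. Capitals mark every match, on either strand, to a motif searched.
LBH: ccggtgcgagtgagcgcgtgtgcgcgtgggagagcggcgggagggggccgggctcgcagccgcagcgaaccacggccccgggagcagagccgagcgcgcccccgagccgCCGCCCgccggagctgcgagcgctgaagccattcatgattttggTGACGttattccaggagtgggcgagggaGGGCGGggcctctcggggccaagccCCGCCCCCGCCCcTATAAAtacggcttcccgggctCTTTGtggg
THSD7A: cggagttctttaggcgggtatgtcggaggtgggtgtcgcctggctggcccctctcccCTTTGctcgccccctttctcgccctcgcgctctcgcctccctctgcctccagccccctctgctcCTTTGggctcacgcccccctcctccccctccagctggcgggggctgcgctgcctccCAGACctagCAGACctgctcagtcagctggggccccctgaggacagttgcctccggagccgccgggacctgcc

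Both stretches were rich in G and C, at 72.8% for LBH and 70.8% for THSD7A against a median of 58% over all promoters of the table, and they held 32 and 15 CpG dinucleotides. LBH had a TATA motif (TATAAA) from -31 to -26, 4 matches to the SP1 motif (GGGCGG, or CCGCCC on the other strand), 1 CRE core (TGACG) and 1 TCF/LEF core (CTTTG). THSD7A had 2 TCF/LEF cores and 2 SMAD motifs (CAGAC), and no TATA or SP1 motif. The AP-1 motif (TGANTCA), the E-box motif, the CCAAT box and the NF-kappaB motif were not in either window, and no 2 matches overlapped. Among 35116 promoters of 300 bases, from 250 before to 50 after the start, TATAAA was in 11.5%, GGGCGG in 45%, TGACG in 24.6%, CTTTG in 47.5%, CAGAC in 45.3%, TGANTCA in 7.71%, the E-box (CACGTG) in 7.26%, the CCAAT letters in 34.6% and the NF-kappaB motif in 11.3%. Such matches are letters in a window and say nothing of binding.

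Levels below are log2 values that the submitters made with RMA, a method that corrects background, brings the arrays to a common distribution and summarises the probes of each probe set, so a difference of 1 is a 2-fold difference. Array medians lay between 6.35 and 6.46, and the lowest correlation between any 2 arrays was 0.98. LBH had a mean over the 30 arrays above 75.3% of all probe sets, and THSD7A above 67.7% by 214920_at and 60.3% by 213894_at. Most markers of macrophages were high: of 14 on the array 13 passed the filter on low values, and 11 were above the array median on all 30 arrays. Of the other markers that passed the filter, 2 of 4 podocyte, 2 of 6 fibroblast, 1 of 3 endothelial, 1 of 8 lymphocyte and 0 of 3 epithelial markers were. The macrophage marker MRC1 was low, at a mean of 4.56. The share of all genes above the median on all arrays was not computed. The number of arrays limits the precision, and 1 fit of 10 group means over the 30 arrays (limma, 10050 genes) gave the standard errors.

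LBH was similar in all 5 groups at 1 h and lower than at 24 h. Its lowest array, at 6.48, was still above the highest array median of 6.46. In control culture at 1 h its level was 6.48, 7.11 and 6.83 on the 3 arrays (mean 6.81 ± 0.31, SD, n = 3). With MWCNT it was 6.61, 7.07 and 6.81 at 10 µg/ml and 6.85, 7.13 and 6.90 at 100 µg/ml. With TiO2-NB it was 7.15, 6.78 and 6.86 at 10 µg/ml and 6.72, 7.27 and 7.05 at 100 µg/ml. Each of these 4 exposed groups overlapped the control arrays.

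After 24 h of control culture LBH was 10.62, 10.69 and 10.35 (mean 10.55 ± 0.18, SD, n = 3). Every one of these arrays was above every array of 1 h, and the difference of 3.74 ± 0.16 (SE) was the 2nd largest rise of the 10050 genes. In that contrast 20.8% of genes were called higher and 16.1% lower at an adjusted p under 0.05 (limma, Benjamini-Hochberg), and the arrays of 45% of genes did not overlap. Since the contrast chose LBH, nothing is read from these shares.

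At 24 h the particle groups stood below control in LBH, by little at 10 µg/ml and by more at 100 µg/ml. MWCNT at 10 µg/ml gave 10.36, 10.31 and 10.14, and TiO2-NB at 10 µg/ml gave 10.24, 10.37 and 10.15. Both groups overlapped the control arrays, at differences of -0.28 ± 0.16 and -0.30 ± 0.16 (SE). MWCNT at 100 µg/ml gave 9.40, 9.37 and 9.50, all below every array of the control and 10 µg/ml groups. TiO2-NB at 100 µg/ml gave 8.48, 8.99 and 8.93, the lowest group of 24 h and still above every array of 1 h.

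Against control at 24 h, LBH with 100 µg/ml TiO2-NB differed by -1.75 ± 0.16 (SE), a 3.36-fold lower level and the 7th largest fall of the genes tested. With 100 µg/ml MWCNT the difference was -1.13 ± 0.16, a 2.19-fold lower level and the 23rd largest fall. For comparison, 33.3% of all genes did not overlap between control and 100 µg/ml TiO2-NB, 30% for 100 µg/ml MWCNT, 9.63% for 10 µg/ml TiO2-NB and 8.34% for 10 µg/ml MWCNT. Between 10 and 100 µg/ml TiO2-NB at 24 h LBH differed by -1.45 ± 0.16, the largest fall of the 10050 genes. In that contrast 28.6% of genes did not overlap. Every contrast in this paragraph holds arrays whose values chose LBH, so nothing is read from the ranks. At 100 µg/ml and 24 h LBH was higher with MWCNT than with TiO2-NB by 0.62 ± 0.16 and the arrays did not overlap, which held for 40.8% of all genes, while at 10 µg/ml the materials differed by 0.02 ± 0.16 and overlapped.

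**Figure D1:**
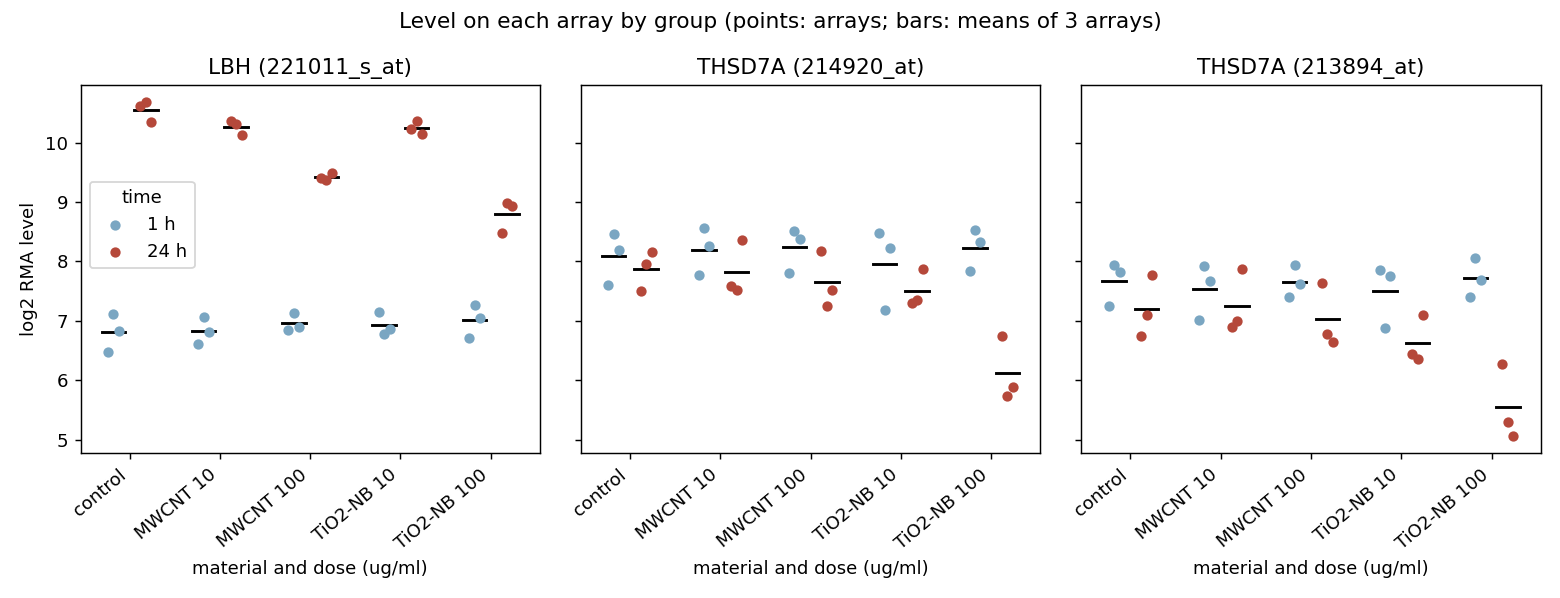
Log2 RMA level (vertical axis) of LBH and of both THSD7A probe sets on each of the 30 arrays, by material and dose in µg/ml. Points are arrays, blue at 1 h and red at 24 h, and black bars are means of 3 arrays: LBH is between 8.48 and 10.69 at 24 h and at most 7.27 at 1 h, and both THSD7A panels are lowest with 100 µg/ml TiO2-NB at 24 h.

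Ordered by mean, LBH ran from control at 24 h through MWCNT at 10 µg/ml (10.27 ± 0.12, SD) and TiO2-NB at 10 µg/ml (10.25 ± 0.11) to MWCNT at 100 µg/ml (9.42 ± 0.07), TiO2-NB at 100 µg/ml (8.80 ± 0.28) and the 1 h groups (6.81 to 7.01). The first 3 overlapped as neighbours, as did all 1 h groups. The other steps, down to MWCNT at 100 µg/ml, to TiO2-NB at 100 µg/ml and to 1 h, each separated every array. Between the 100 µg/ml groups of 24 h, 40.8% of all genes did not overlap. The share for the other steps was not computed. Each of these steps holds 24 h TiO2-NB arrays, whose values chose LBH, so nothing is read from the separation.

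LBH was higher at 24 h than at 1 h under every exposure. The level at 24 h over the 1 h control was 92.4% of the control rise in log2 units with MWCNT at 10 µg/ml, 92% with TiO2-NB at 10 µg/ml, 69.8% with MWCNT at 100 µg/ml and 53.2% with TiO2-NB at 100 µg/ml. Measured against its own 1 h group, the rise was 10.8-fold, 10.0-fold, 5.50-fold and 3.46-fold in the same order. The control rise and the particle differences share the 3 control arrays of 24 h, so an error in those arrays enters both.

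The MWCNT arrays and the arrays of 1 h particle groups took no part in choosing the genes, and 8 comparisons among them were tested for both genes. LBH rose from 1 to 24 h by 3.44 ± 0.16 (SE) with MWCNT at 10 µg/ml (limma adjusted p = 4.97e-14), where 42.9% of all genes were called. With MWCNT at 100 µg/ml it rose by 2.46 ± 0.16 (limma adjusted p = 1.99e-11), where 40.4% were called. At 24 h LBH was lower at 100 than at 10 µg/ml MWCNT by 0.85 (difference -0.85 ± 0.16, limma adjusted p = 0.00267), with no overlap between the arrays, where 4.67% of genes were called and 25.2% did not overlap. It was the 25th largest fall of that comparison.

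The difference between the LBH rises at 100 and 10 µg/ml MWCNT was -0.98 ± 0.23 (SE; 95% interval -1.45 to -0.51), which did not pass the threshold (limma adjusted p = 0.0573, unadjusted p = 0.000222), in a comparison where 0.368% of genes were called. Its adjusted p ranged from 0.0058 to 0.213 over 22 other ways of processing, and 5 of them brought it under 0.05. The lowest came from removing 1 array of each group (the array apart, described below), a step chosen after the data were seen. At 1 h no LBH difference passed the test. Between 100 and 10 µg/ml it was 0.13 for MWCNT (95% interval -0.20 to 0.46), where 0% of genes were called, and 0.08 for TiO2-NB (-0.25 to 0.41), where 0.0796% were called. Between MWCNT and TiO2-NB it was -0.10 at 10 µg/ml (-0.43 to 0.23), where 0% were called, and -0.05 at 100 µg/ml (-0.38 to 0.28), where 1.42% were called. For the comparisons with none called, limma gave 292 genes (MWCNT doses) and 264 genes (materials at 10 µg/ml) with an unadjusted p under 0.05.

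**Figure D2:**
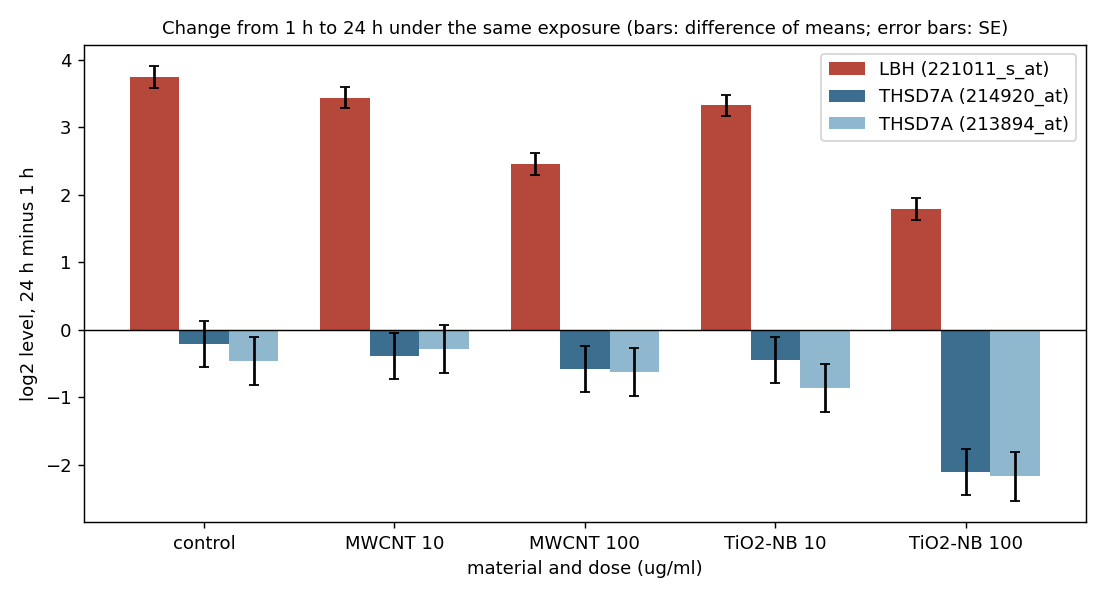
Difference in mean log2 level between 24 h and 1 h (vertical axis) within each material and dose (horizontal axis, µg/ml), for LBH and both THSD7A probe sets. Bars start at 0 and error bars are SE from the fit: LBH is positive in all 5 exposures, from 1.79 to 3.74, and THSD7A is negative, lowest with 100 µg/ml TiO2-NB.

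No such rise was seen in THSD7A. By 214920_at its level in control culture was 7.60, 8.46 and 8.19 at 1 h and 7.50, 7.95 and 8.15 at 24 h. The groups overlapped, and the difference of -0.22 ± 0.34 (SE) was smaller than its error. By 213894_at the means were 7.68 ± 0.37 and 7.21 ± 0.52 (SD, n = 3), a difference of -0.47 ± 0.36 with overlap. The probe sets followed each other closely, with r = 0.97 over the 30 arrays, as a description of 2 measures of 1 gene on the same arrays.

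THSD7A was lowest at 24 h with 100 µg/ml TiO2-NB, at 6.75, 5.74 and 5.89 by 214920_at (mean 6.13 ± 0.54, SD, n = 3). All 3 were below every other array of the study in that probe set. Against control the difference was -1.74 ± 0.34 (SE), a 3.35-fold lower level and the 8th largest fall of the genes tested. Since that contrast chose THSD7A, nothing is read from the rank. By 213894_at the arrays were 6.28, 5.29 and 5.05 and the difference was -1.67 ± 0.36, 3.17-fold lower. The values of 5.29 and 5.05 were near the lower quartiles of those arrays (4.90 and 4.83), where RMA understates differences. The level of THSD7A was lower also than on the group's own 1 h arrays, which were 7.85, 8.52 and 8.33 by 214920_at, a difference of -2.11 ± 0.34.

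The arrays of the other particle groups at 24 h overlapped those of control in THSD7A. TiO2-NB at 10 µg/ml gave 7.29, 7.36 and 7.87 by 214920_at, which overlapped control at -0.36 ± 0.34 (SE), and -0.58 ± 0.36 by 213894_at. By size these falls ranked 93rd and 20th against the genes tested, with nothing read from the ranks. MWCNT at 100 µg/ml gave 8.18, 7.24 and 7.52, a difference of -0.22 ± 0.34, and -0.18 ± 0.36 by 213894_at. MWCNT at 10 µg/ml gave 7.58, 7.51 and 8.35, with -0.05 ± 0.34 and 0.04 ± 0.36 by the 2 probe sets. At 100 µg/ml and 24 h THSD7A was higher with MWCNT than with TiO2-NB by 1.52 ± 0.34 and 1.48 ± 0.36, with no overlap by either probe set, as for 40.8% of all genes. At 10 µg/ml the same difference was 0.31 ± 0.34 and 0.62 ± 0.36, with overlap. From 10 to 100 µg/ml TiO2-NB it was -1.38 ± 0.34 and -1.09 ± 0.36, without overlap, as for 28.6% of all genes. In the order of the 10 means the 5 groups of 1 h came first (7.96 to 8.24 by 214920_at), then control, MWCNT at 10, MWCNT at 100 and TiO2-NB at 10 µg/ml at 24 h, each overlapping the next, and 100 µg/ml TiO2-NB stood apart at the end.

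None of the 8 tested comparisons passed for THSD7A. With MWCNT the 24 h level was lower than that of 1 h by 0.38 at 10 µg/ml (difference -0.38 ± 0.34, 95% interval -1.09 to 0.32, limma adjusted p = 0.384). At 100 µg/ml the difference was -0.59 ± 0.34 (-1.29 to 0.11, limma adjusted p = 0.178). Between the MWCNT doses at 24 h it was -0.17 (-0.87 to 0.54, limma adjusted p = 0.887). The differences between doses and materials at 1 h lay from 0.01 to 0.27, with an SE of 0.34. The rise at 100 minus that at 10 µg/ml MWCNT differed by -0.21 (-1.20 to 0.79). These intervals hold changes of over 1 log2 unit in places, since THSD7A varied more between replicates than most genes: the residual SD was 0.45 by 214920_at and 0.48 by 213894_at, 0.21 for LBH, and 0.13 for the median gene.

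That spread was shared with other genes. After subtraction of group means, the leading component of all other genes held 43.1% of the remaining variance among the 1 h arrays and 49.8% among those of 24 h, and on it 1 array per group stood apart from the other 2. At 1 h it was replicate 2, except replicate 1 of TiO2-NB at 10 µg/ml. At 24 h it was replicate 3 of control and both 10 µg/ml groups, and replicate 1 of both 100 µg/ml groups. At 24 h the array apart had the highest THSD7A of its group in all 5 groups and both probe sets. Over the 15 deviations from the group means at 24 h, the score on the component had r = 0.93 with THSD7A by 214920_at and -0.82 with LBH. At 1 h r was 0.75 and 0.87, so LBH deviated with THSD7A at 1 h and against it at 24 h. The 3 deviations of a group sum to 0 and all come from the same arrays, and no p is given.

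The differences from control at 24 h that rest on these arrays are given here with and without them, with nothing read from it, since the nanobelt contrast chose the genes. For 100 µg/ml TiO2-NB against control, THSD7A by 214920_at differed by -1.41 between the arrays apart and by -1.91 between the means of the other 2. LBH differed by -1.87 and -1.69, and with 100 µg/ml MWCNT by -0.95 and -1.22. For 10 µg/ml TiO2-NB, THSD7A differed by -0.29 and -0.40 by 214920_at and by -0.68 and -0.53 by 213894_at.

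**Figure D3:**
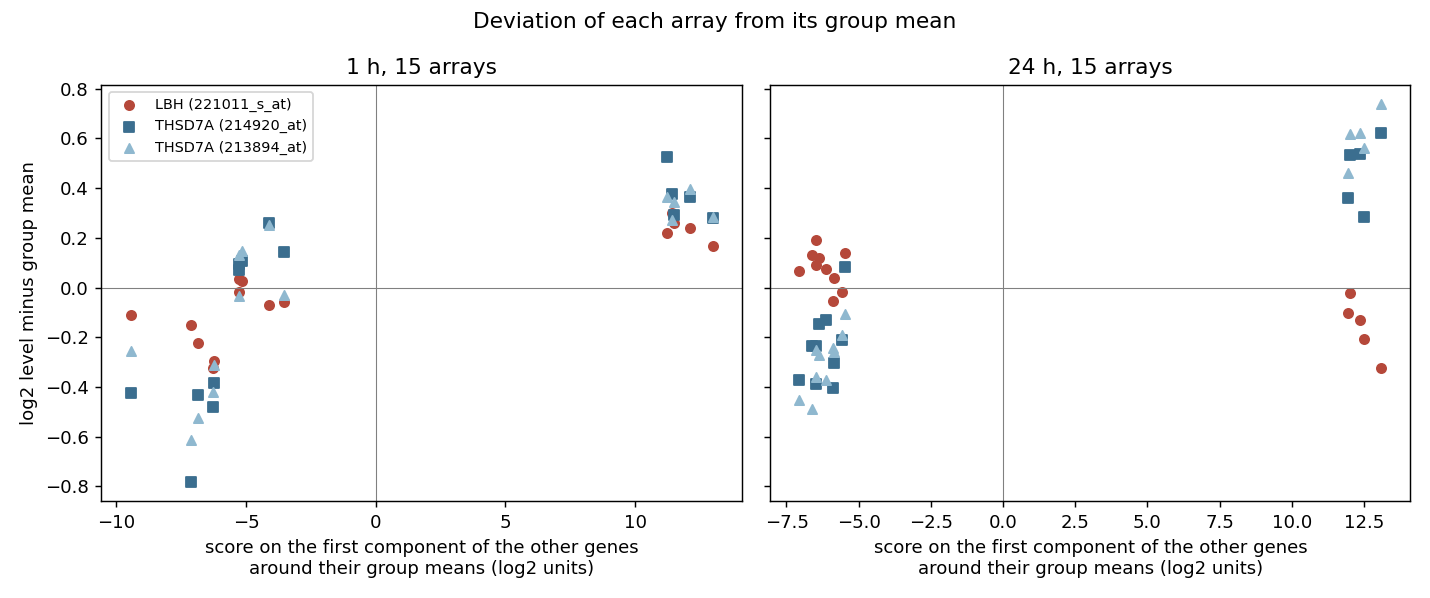
Level of each array minus its group mean (vertical axis, log2) against the array's score on the first component of the other genes around their group means (horizontal axis, log2 units), for 15 arrays at 1 h and 15 at 24 h. Circles are LBH, squares and triangles the THSD7A probe sets: the 5 arrays to the right in each panel stand apart, with THSD7A above its group mean at both times and LBH above it at 1 h and below it at 24 h, by as little as 0.02 for MWCNT at 100 µg/ml, where that array was not the lowest.

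The genes whose levels went most like LBH over the 30 arrays were HOPX (r = 0.99), NES (0.99), GALNT2 (0.99), MSR1 (0.99) and VCL (0.98). HOPX is a homeodomain-only cofactor, NES an intermediate filament protein, MSR1 a scavenger receptor of macrophages and VCL vinculin of focal adhesions. All 5 were higher at 24 h of control culture, by 1.07 for GALNT2 to 2.61 for MSR1. Over the 15 arrays of 24 h the closest were ETV5, CKLF, IFNGR1, TRAM2 and FCER1G (r from 0.97 to 0.98). Their control change with culture lay between -0.25 and 0.30, against 3.74 for LBH.

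THSD7A was most like IL12RB2 (r = 0.94), UBE2J1 (0.90), NAAA (0.89), CRBN (0.89) and GAREM1 (0.88) over the 30 arrays. Over the 15 arrays of 24 h these were CD163 (0.97), CNDP2, SLC30A1, UBE2J1 and FCF1 (0.96 each). CD163, the haemoglobin scavenger receptor of macrophages, rose by 2.17 in control culture, against -0.22 for THSD7A. The arrays share their groups and the component above, so these values are descriptions. The measured gene next to LBH on chromosome 2, YPEL5, changed by -0.22 ± 0.12 (SE) with control culture (limma adjusted p = 0.166) and 0.18 ± 0.12 with 100 µg/ml TiO2-NB (limma adjusted p = 0.312). The measured gene next to THSD7A on chromosome 7, TMEM106B, gave 0.25 ± 0.14 (limma adjusted p = 0.163) and -0.27 ± 0.14 (limma adjusted p = 0.167).

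Among 12 measured WNT feedback and target genes, 3 rose and 2 fell with control culture, close to the shares over all genes (20.8% and 16.1%). JAG1, a Notch ligand, rose by 2.01 ± 0.39 (SE, limma adjusted p = 0.000201), CCND1, which drives entry to the cell cycle, by 0.54 ± 0.06, and the transcription factor gene TCF7L2 by 0.54 ± 0.08. LEF1 fell by 0.65 and CD44, an adhesion receptor, by 0.34. With 100 µg/ml TiO2-NB 2 were higher, CCND1 by 0.36 and CD44 by 0.62, and 2 lower, TCF7L2 among them at -0.37 ± 0.08 (limma adjusted p = 0.00246), where 10.9% and 11.1% of all genes were. The list median was 0.13 with culture and 0.01 with TiO2-NB, against 0.03 and 0.01 over all genes.

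Of 25 measured WNT ligands, receptors and transducers, 7 rose and 4 fell with control culture, against 20.8% and 16.1% of all genes. The receptor FZD6 rose by 1.56 ± 0.20 (SE, limma adjusted p = 1.43e-06) and the ligand WNT5B by 0.85 ± 0.29, while the receptor FZD2 fell by 0.83. Under 100 µg/ml TiO2-NB 1 was higher and 3 lower, and with 100 µg/ml MWCNT 0 and 2 (limma; 0 higher also at an unadjusted p under 0.05). In the TiO2-NB contrast 10.9% of all genes were higher and 11.1% lower, and in the MWCNT contrast 8.99% and 4.04%.

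Of 19 measured TGF-beta genes 2 rose and 10 fell with control culture, and with 100 µg/ml TiO2-NB 4 were higher and 4 lower. Over all genes, 20.8% rose and 16.1% fell with culture, and 10.9% were higher and 11.1% lower with TiO2-NB. CCN2, a matricellular protein, fell by 2.71 with culture and was higher by 1.28 ± 0.36 (SE) with TiO2-NB (limma adjusted p = 0.0121). BAMBI, a decoy receptor, was higher by 1.19 ± 0.12 with TiO2-NB, and TGFBI, an extracellular matrix protein, was lower at -0.92 ± 0.06 (limma adjusted p = 9.47e-11).

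The thrombospondin type 1 repeat genes share the repeat of THSD7A. With 100 µg/ml TiO2-NB 0 of 20 measured were called (limma), with 3 higher and 1 lower at an unadjusted p under 0.05. In that contrast 10.9% of all genes were called higher and 11.1% lower. With control culture 2 of the 20 rose and 4 fell, where 20.8% and 16.1% of all genes did. The rises were in the secreted proteases ADAMTS1, by 1.48 ± 0.44 (SE, limma adjusted p = 0.00952), and ADAMTS8, by 1.23, and C9, of the terminal complement complex, fell by 1.31. Among 8 measured antigens of membranous nephropathy other than THSD7A, 1 was lower with 100 µg/ml TiO2-NB, as were 11.1% of all genes. It was EXT1, an enzyme of heparan sulfate synthesis, at -0.58 ± 0.15 (limma adjusted p = 0.00667). PLA2R1, the most common target, was below the level for testing.

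Genes of focal adhesions and integrins, which tie cells to their support, rose in control culture: 13 of 15 measured were higher and 0 lower (limma; 0 lower also at an unadjusted p under 0.05), at a median of 0.69 against 0.03 for all genes, of which 20.8% were higher and 16.1% lower. VCL rose by 1.61 ± 0.10 (SE), PXN (paxillin) by 1.38 ± 0.10, PTK2 (focal adhesion kinase) by 1.30 ± 0.20 and FERMT2 (kindlin-2) by 1.13 ± 0.13 (limma adjusted p of at most 1.69e-05). In cells with 100 µg/ml MWCNT, 14 of 15 were higher at 24 than at 1 h, where 22.7% of all genes were higher and 17.7% lower. Against control at 24 h, 5 of the 15 were lower with 100 µg/ml TiO2-NB, VCL at -0.74 ± 0.10 first among them. The kinase SRC was the 1 higher, by 1.31 ± 0.14 (limma adjusted p = 1.81e-07). In that contrast 11.1% of all genes were lower and 10.9% higher. With 100 µg/ml MWCNT against control, 2 of the 15 were lower and 1 higher, where 4.04% and 8.99% of all genes were.

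Of 13 measured macrophage markers, 9 rose and 1 fell with control culture, and 3 were lower and 0 higher with 100 µg/ml TiO2-NB (4 and 0 at an unadjusted p under 0.05). The 1 that fell with culture was LYZ, at -1.67 ± 0.45 (SE, limma adjusted p = 0.00458). Over all genes the shares were 20.8% and 16.1% with culture, and 11.1% lower and 10.9% higher with TiO2-NB. With the array apart of each group removed, 6 in place of 3 markers were lower with TiO2-NB. The 3 were MSR1 at -0.94 ± 0.21 (SE, limma adjusted p = 0.00193), CD163 at -0.82 ± 0.15 and CSF1R, the receptor of macrophage colony-stimulating factor, at -0.37 ± 0.08. The mean level of all 13 markers per array was 9.27 to 9.52 in control culture at 1 h, 10.09 to 10.21 at 24 h and 9.79 to 9.92 with 100 µg/ml TiO2-NB at 24 h. With 100 µg/ml MWCNT, where LBH was also lower, it was 10.05 to 10.18, overlapping control. In that contrast 0 of the 13 markers were lower, also at an unadjusted p under 0.05. The 1 higher was MARCO, by 0.71 ± 0.19 (SE, limma adjusted p = 0.012). Of all genes, 4.04% were lower and 8.99% higher there. The part of the macrophage markers in the changes of LBH and THSD7A was not tested. In bulk RNA, fewer cells expressing a gene and less of its RNA per cell cannot be told apart. Of the cells in which THSD7A is best known, 4 podocyte markers were measured, of which 3 rose and 1 fell with culture and 1 was higher and 1 lower with 100 µg/ml TiO2-NB. PODXL (podocalyxin) rose by 3.29 ± 0.28 with culture and was lower with the nanobelts at -1.10 ± 0.28 (limma adjusted p = 0.00601). WT1, a transcription factor, rose by 0.28 ± 0.09 and was higher with them by 0.35 ± 0.09 (limma adjusted p = 0.00621). SYNPO (synaptopodin) rose by 0.25 with culture and differed by 0.01 with nanobelts, PTPRO, a phosphatase, fell by 0.21 and differed by -0.05, and NPHS1 (nephrin) was below the level for testing. Of 9 endothelial markers listed 3 were measured, of which 0 were called with 100 µg/ml TiO2-NB and 0 had an unadjusted p under 0.05 (limma).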

How the data were processed

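RNA of 30 flasks, 10 groups of 3, was measured on 1 type of 1-colour array. The deposited values are on the log2 scale, made by the authors with RMA per the submitters' processing notes, and the values bear the log2 scale out (1.89 to 14.42). RMA pulls low levels together and so understates their differences. The genome build of the probe design is not given in the sources used here. Of 22277 probe sets 19064 map to 1 gene, 1043 to several and 2108 to none, and 62 are controls. Symbols were updated through the Entrez ID. Probe sets above the array's 25th percentile on at least 3 arrays were kept (15309), and that of highest mean stood for its gene (10050 genes). limma 3.58.1 (R 4.3.3) fitted 10 group means with 20 residual degrees of freedom, with Benjamini-Hochberg adjustment over all genes within a comparison and a threshold of 0.05, and was tested on simulated data. Intervals are 95%, not adjusted. Figures were drawn with matplotlib 3.10.9 in Python 3.11.15.

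The members, the gene lists and the tests were chosen with earlier results of these data known. Named genes were both members, the 5 genes of highest Pearson r to each over 30 arrays and over the 15 of 24 h, any WNT feedback gene or nephropathy antigen, and from other lists the 4 called genes of largest change in the comparison described, with a few called or defining genes beyond that chosen after their values were seen. Equally numbered arrays of different groups correlated over 0.1 in their deviations in 38 of 60 pairs (from -0.53 to 0.73). These were 22 of 30 pairs at 1 h and 16 of 30 at 24 h. The array apart did not keep 1 number across groups, and the numbers were not taken to pair the arrays. The fit had no term for the shared component, so its variance is part of the errors given. Promoters came from RefSeq (GRCh38.p14), in which both genes matched; no coordinates were taken from the array files. Alternatives were other scalings, filters, probe set rules and fits, a replicate block, each array left out, and sets of 2 arrays per group.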

Additional observations from a re-analysis of the deposited data

How the results depend on the processing

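Of 650 values recomputed for 39 results, 582 kept their direction and side of the threshold or stayed within the stated spread, and 25 reversed. All that reversed were differences smaller than their SE, the largest 0.27 ± 0.34 for THSD7A between TiO2-NB doses at 1 h. Setting the replicate number as a block gave an LBH rise difference between 100 and 10 µg/ml MWCNT of -0.98 with an adjusted p of 0.0257 (5 genes called for TiO2-NB doses at 1 h) and changed no other call. That difference passed also with a filter at the array median (-0.98, 0.0494), with an intensity trend and robust variance (0.0445), without replicate 2 of MWCNT at 10 µg/ml and 1 h (0.0358) and with the arrays apart removed (-1.07, 0.0058). That removal and the other THSD7A probe set were chosen after seeing the data; taking out the array farthest off lowers the spread by construction, and gave 726 genes for MWCNT doses at 24 h (469 with all arrays), 211 for the rise difference (37), 0 for TiO2-NB doses at 1 h (8), 1 for materials at 100 µg/ml and 1 h (143), an LBH control rise of 3.996, and 6 macrophage markers lower with TiO2-NB (3). The count for TiO2-NB doses at 1 h was 36 with median centring, 4 with cyclic loess, 4 with the mean of probe sets, 0 with the median filter and 0 with only the groups compared; for materials at 100 µg/ml and 1 h the latter settings gave 0 and 0, and only the groups compared gave 6 for the rise difference. The difference of materials at 100 µg/ml and 1 h was -0.0034 for THSD7A with median centring, -0.027 with the mean of probe sets and -0.060 with the other probe set, and 0.0073 for LBH with cyclic loess; MWCNT at 10 µg/ml against control at 24 h was 0.044 for THSD7A with the other probe set. Leaving out 1 array in turn gave these ranges. At 24 h MWCNT doses differed by -0.43 to 0.10 in THSD7A (197 to 411 genes called, lowest without replicate 1 of 10 µg/ml), and MWCNT at 10 µg/ml from control by -0.32 to 0.10. At 1 h MWCNT doses differed by -0.18 to 0.25 in THSD7A, and TiO2-NB doses by -0.045 to 0.23 in LBH and -0.12 to 0.53 in THSD7A (1 to 90 genes, lowest without replicate 1 or 2 and highest without replicate 3 of 10 µg/ml). Materials at 10 µg/ml differed by -0.22 to 0.013 in LBH and -0.15 to 0.50 in THSD7A, and at 100 µg/ml by -0.20 to 0.081 and -0.19 to 0.22 (6 to 127 genes, lowest without replicate 2 of TiO2-NB). The rise difference was -1.10 to -0.87 in LBH and -0.47 to 0.063 in THSD7A (8 to 62 genes, lowest without replicate 1 of 10 µg/ml at 1 h, highest without replicate 1 of 100 µg/ml at 24 h). The cause of these changes was not tested. Scaling moved the median of all genes by at most 0.034. With 3 arrays a group and the shared component counted in the spread, the SE of 0.34 limits THSD7A.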
